A study of Homo sapiens with 4 samples.

Results

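The genes described here are 10 receptors of the tumour necrosis factor (TNF) receptor superfamily, chosen by name from the 57820 genes of the count tables: FAS, TNFRSF10A, TNFRSF10B, TNFRSF10C, TNFRSF10D, TNFRSF1A, TNFRSF12A, TNFRSF21, TNFRSF25 and NGFR. All 10 were found by gene identifier in the GENCODE annotation on hg19 (GRCh37). RNA was sequenced from SY5Y (SH-SY5Y), an established neuroblastoma line labelled MYCN wild type, 12 h after addition of SGSS05-NS or of its solvent DMSO, with 2 libraries in each group. The study describes the compound as a covalent inhibitor of SETD8 (gene symbol KMT5A), the enzyme that places a single methyl group on lysine 20 of histone H4. The labels name the compound SGSS05-NS and the study SGSS05-NS3, and the label's name is kept here. The labels and the study's figure legend give a dose of 3 μM, and its methods a lower dose for this line. Both groups are 1 cell line, and the study describes the libraries of a group as independent biological replicates.

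Receptors of this family carry cysteine-rich repeats outside the cell, and most bind trimeric ligands. FAS, TNFRSF10A and TNFRSF10B, TNFRSF1A, TNFRSF25, TNFRSF21 and NGFR also carry a death domain inside the cell. FAS and the TRAIL receptors TNFRSF10A and TNFRSF10B recruit the adaptor FADD and through it the initiator caspases CASP8 and CASP10, which start apoptosis, whereas TNFRSF1A and TNFRSF25 bind TRADD first and mainly signal to NF-kB. TNFRSF10C and TNFRSF10D are decoys that bind TRAIL without a working death domain, and TNFRSF12A, the receptor of TWEAK, has no death domain. Loss of CASP8 expression is a known feature of many neuroblastoma lines, SH-SY5Y among them.

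With SGSS05-NS, 6 of the 10 receptor genes were higher than with DMSO and 0 were lower (edgeR's quasi-likelihood test, adjusted p under 0.001). The 6 were FAS, TNFRSF12A, NGFR, TNFRSF10A, TNFRSF10B and TNFRSF1A, with fold changes between 2.20 and 26.7. TNFRSF21 and TNFRSF25 were measured and did not pass the test, and the decoys TNFRSF10C and TNFRSF10D had too few fragments to be tested. Of all 16468 genes tested, 6.37% were higher and 8.14% lower at this threshold. The receptors were chosen with earlier results of these data known, so these shares are no test of the receptors as a set. At an adjusted p under 0.05 the shares over all genes were 22.6% higher and 23.7% lower, and the same 6 receptors passed. A gene was tested when it reached a level of 0.421 CPM (fragments scaled to library size) in at least 2 libraries. TNFRSF10A passed this filter through the treated libraries, since 1 DMSO library was below it.

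The 4 libraries held between 21463105 and 25350204 fragments assigned to genes, and libraries of a group differed by more than sampling noise. Markers of adrenergic neuroblastoma were abundant, with 3583 and 3837 CPM summed over 10 genes in the DMSO libraries and 2312 and 2269 CPM in the treated ones, and 7 of the 9 tested were lower, although TH, the rate-limiting enzyme of catecholamine synthesis, had 2 fragments in each DMSO library. Summed mesenchymal markers (10 genes) were between 124 and 163 CPM, with PRRX1 at 0 in all libraries and PDGFRB lower. Summed Schwann cell markers (5 genes) were between 1.57 and 2.57 CPM with SOX10 at 0. Summed immune markers (6 genes) went from 0.319 and 0.471 CPM to 1.31 and 1.36 CPM, of which CD14 held most, with CD3E and MS4A1 at 0. The part of these markers in the receptor results was not tested. In bulk RNA, fewer cells of a type and less RNA per cell cannot be told apart. KMT5A, whose product the compound inhibits, was higher with SGSS05-NS (log2 fold change 0.57, SE 0.09), with an adjusted p of 3.7e-04 in edgeR's quasi-likelihood test.

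**Figure D1:**
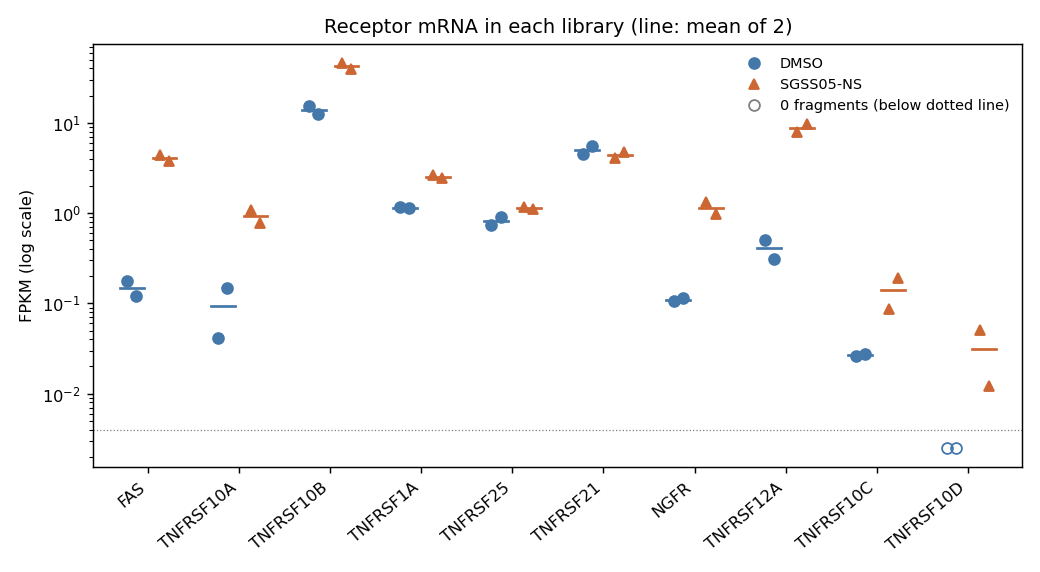
Level of each receptor mRNA in each library, in FPKM (fragments divided by exon length and by library size) on a log axis. Points are libraries, lines are means of 2 libraries, and open points below the dotted line mark 0 fragments. TNFRSF10B was the highest in both groups, and the treated points of FAS and TNFRSF12A lay more than 10 times above the DMSO points.

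FAS (ENSG00000026103.15, chr10:90750414-90775542, plus strand), the receptor of FAS ligand, was represented by 16 and 10 fragments in the DMSO libraries and by 344 and 316 in the SGSS05-NS libraries. Scaled to library size, its level was 0.638 and 0.428 CPM with DMSO and 15.5 and 13.4 CPM with SGSS05-NS. Both treated libraries were far above both DMSO libraries, and the treated libraries lay close together. The log2 fold change was 4.74 (SE 0.24, 95% interval 4.22 to 5.26), a 26.7-fold difference, with an adjusted p of 8.0e-08 by edgeR's quasi-likelihood test. By its p-value FAS was the 23rd of the 8404 genes with a positive fold change. Per length, FAS went from 0.179 and 0.120 FPKM to 4.35 and 3.77 FPKM, so a transcript close to the detection limit in DMSO came to the range of TNFRSF21.

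RefSeq promoter sequences (250 bases before to 50 bases after an annotated start, GRCh38.p14) were given for 4 of the 10 receptors: FAS with 3 starts, and TNFRSF1A, TNFRSF21 and TNFRSF25 with 1 each. Matches on both strands to the AP-1 motif TGANTCA and to the NF-kB motif are given here. The windows at the most upstream start (A) and the most downstream start (B) of FAS are shown because they held these matches next to the receptor gene with the highest fold change. Capitals mark the AP-1 match in window A, and the NF-kB match in window B.
FAS window A, chr10:88990548-88990847, plus strand: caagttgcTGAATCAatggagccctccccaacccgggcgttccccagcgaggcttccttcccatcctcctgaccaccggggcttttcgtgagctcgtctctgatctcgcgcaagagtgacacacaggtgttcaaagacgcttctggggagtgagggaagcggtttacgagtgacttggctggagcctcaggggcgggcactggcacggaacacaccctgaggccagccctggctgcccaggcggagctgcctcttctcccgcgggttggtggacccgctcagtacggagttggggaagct
FAS window B, chr10:88991181-88991480, plus strand: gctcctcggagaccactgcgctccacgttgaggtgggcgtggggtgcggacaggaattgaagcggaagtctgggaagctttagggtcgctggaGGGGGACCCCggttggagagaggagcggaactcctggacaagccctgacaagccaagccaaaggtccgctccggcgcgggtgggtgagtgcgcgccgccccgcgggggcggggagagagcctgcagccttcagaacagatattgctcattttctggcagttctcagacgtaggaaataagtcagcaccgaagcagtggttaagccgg

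Counted from the annotated start, the AP-1 match began at base -242 in window A and the NF-kB match at base -157 in window B. Of 35116 RefSeq promoters of the same length, 7.71% held the AP-1 motif and 11.3% the NF-kB motif. TNFRSF25, which did not pass the test, held an NF-kB match 37 bases after its start, and the windows of TNFRSF1A and TNFRSF21 held neither of these motifs. A match of letters is a description of the window, and binding was not measured.

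The neighbouring gene ACTA2, which encodes smooth muscle actin, runs on the opposite strand and overlaps FAS by 683 bases. ACTA2 had 60 and 33 fragments with DMSO and 439 and 226 with SGSS05-NS, a log2 fold change of 2.93 (SE 0.34) with an adjusted p of 3.4e-05 in edgeR's quasi-likelihood test. The gap between the treated libraries was wider for ACTA2 than for FAS. The counts used here keep the strand, and the log2 fold change of FAS was between 4.71 and 4.77 under the other tests, scalings, filters and the unstranded counts.

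Among the TRAIL receptors, TNFRSF10B (ENSG00000120889.8, chr8:22877646-22926544, minus strand) carried nearly all of the signal. It had 1918 and 1466 fragments with DMSO and 5085 and 4646 with SGSS05-NS, corresponding to 76.4 and 62.8 CPM against 229 and 198 CPM. The groups did not overlap, and the lower treated library was more than 2 times the higher DMSO library. The log2 fold change was 1.62 (SE 0.12, 95% interval 1.36 to 1.87) or 3.06-fold, with an adjusted p of 1.1e-06 in edgeR's quasi-likelihood test. Although this was a smaller ratio than that of FAS, TNFRSF10B gained 28.7 FPKM, which was 64.7% of the summed gain of the 6 receptors that were higher.

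TNFRSF10A (ENSG00000104689.5, chr8:23047965-23082615, minus strand), the other TRAIL receptor with a death domain, had 3 and 10 fragments with DMSO and 71 and 54 with SGSS05-NS. These were 0.120 and 0.428 CPM against 3.20 and 2.30 CPM. The DMSO libraries differed more than 3 times from each other, and both were far below the treated libraries. This gave a log2 fold change of 3.32 (SE 0.43, 95% interval 2.397 to 4.25), a 10.02-fold difference, with an adjusted p of 7.9e-05 by edgeR's quasi-likelihood test. Its size rested on the sparse DMSO counts, since it ranged from 2.65 to 4.44 when each library was left out in turn, with the smallest value without DMSO replicate 1 and the largest without DMSO replicate 2.

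The decoy receptors were barely detected. TNFRSF10C (ENSG00000173535.9, chr8:22960434-22974958, plus strand) had 1 fragment in each DMSO library and 3 and 7 in the treated ones. The ratio of its scaled counts was 5.30 with an exact binomial 95% interval of 1.13 to 49.8, which covers counting error only. TNFRSF10D (ENSG00000173530.5, chr8:22993101-23021540, minus strand) had 0 fragments in both DMSO libraries and 4 and 1 in the treated ones. A count of 0 allows up to 3 counts over the DMSO group (0.0619 CPM). Against that limit, the 5 treated fragments of TNFRSF10D gave a ratio of 1.77. This ratio takes the treated count as exact, and the lower bound of the counting interval was 0.971. A fit with no filter gave adjusted p-values of 0.13 for TNFRSF10C and 0.15 for TNFRSF10D (edgeR's quasi-likelihood test), so a difference of either decoy was not detectable at this depth.

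TNFRSF10B made up 99.6% and 98.6% of the summed FPKM of the 4 TRAIL receptors with DMSO and 97.4% and 97.6% with SGSS05-NS. The share of TNFRSF10A was 0.267% and 1.15% with DMSO and 2.33% and 1.94% with SGSS05-NS. For both genes the groups did not overlap, and the exact two-sided permutation p was 0.333, the smallest that 2 against 2 libraries allow. The summed level of the 4 receptors went from 15.3 and 12.7 FPKM to 47.0 and 40.4 FPKM.

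The 4 TRAIL receptor genes lie in 1 cluster on chromosome 8, and the protein-coding genes on either side of it did not pass the test. RHOBTB2, whose end overlaps that of TNFRSF10B on the opposite strand by 377 bases, had a log2 fold change of -0.02 (SE 0.10, adjusted p 0.89), and CHMP7 beyond TNFRSF10A one of -0.12 (SE 0.09, adjusted p 0.33) in edgeR's quasi-likelihood test. A long noncoding RNA antisense to TNFRSF10B, ENSG00000246130, with an overlap of 803 bases, had 5 and 1 fragments with DMSO and 35 and 39 with SGSS05-NS. Its log2 fold change was 3.65 (SE 0.48) with an adjusted p of 8.8e-05 in edgeR's quasi-likelihood test. It passed the filter through the treated libraries only. Across all 10 protein-coding neighbours of the 6 receptors, 5 were tested, and ACTA2 beside FAS was the 1 that was higher. Over all genes tested, 6.37% were higher, and 5 genes are too few to set against that share.

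TNFRSF1A (ENSG00000067182.3, chr12:6437923-6451280, minus strand), the main receptor of TNF, had 124 and 111 fragments with DMSO and 247 and 241 with SGSS05-NS. The level was 4.94 and 4.75 CPM with DMSO and 11.1 and 10.3 CPM with SGSS05-NS. The libraries of each group lay close together and the groups were well apart. Its log2 fold change of 1.14 (SE 0.16, 95% interval 0.79 to 1.49), or 2.20-fold, was the smallest of the 6, with an adjusted p of 1.5e-04 by edgeR's quasi-likelihood test. TNFRSF1B, the second TNF receptor, had between 3 and 10 fragments in a library and was below the filter.

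TNFRSF25 (ENSG00000215788.5, chr1:6520846-6526235, minus strand), the receptor of the cytokine TL1A, had 79 and 90 fragments with DMSO and 110 and 111 with SGSS05-NS. In CPM this was 3.15 and 3.85 against 4.96 and 4.72. The groups did not overlap, and the group means of 3.50 and 4.84 CPM lay farther apart than the DMSO libraries did. The log2 fold change was 0.47 (SE 0.20, 95% interval 0.04 to 0.90), with an adjusted p of 0.071 in edgeR's quasi-likelihood test, and it did not pass at either threshold.

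TNFRSF21 (ENSG00000146072.6, chr6:47199268-47277641, minus strand), a death domain receptor with high expression in the nervous system, had 410 and 465 fragments with DMSO and 324 and 399 with SGSS05-NS. Its level of 16.3 and 19.9 CPM with DMSO overlapped that of 14.6 and 17.0 CPM with SGSS05-NS. The log2 fold change was -0.20 (SE 0.14, 95% interval -0.50 to 0.11) with an adjusted p of 0.27 in edgeR's quasi-likelihood test. The interval leaves out an increase of the size seen for any of the 6 receptors that were higher.

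NGFR (ENSG00000064300.4, chr17:47572655-47592370, plus strand) encodes p75NTR, a low-affinity receptor of neurotrophins. It had 11 fragments in each DMSO library and 121 and 94 in the SGSS05-NS libraries, or 0.438 and 0.471 CPM against 5.45 and 3.997 CPM. The DMSO libraries were nearly equal, and both treated libraries were many times higher. The log2 fold change was 3.36 (SE 0.30, 95% interval 2.70 to 4.02), 10.3-fold, with an adjusted p of 6.1e-06 by edgeR's quasi-likelihood test. SOX10, which marks Schwann cells that also express NGFR, was at 0 in all 4 libraries. The neurotrophin receptor kinases NTRK2 and NTRK3 did not pass the test, with log2 fold changes of -0.21 (SE 0.39) and -1.14 (SE 0.36). Their adjusted p-values in edgeR's quasi-likelihood test were 0.69 and 0.021, so NTRK3 was lower at a threshold of 0.05 and NTRK2 was not. For NTRK3 the groups did not overlap, with 3.67 and 5.09 CPM with DMSO and 0.991 and 2.93 CPM with SGSS05-NS.

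TNFRSF12A (ENSG00000006327.9, chr16:3068446-3072384, plus strand), the TWEAK receptor also known as Fn14, had 23 and 13 fragments with DMSO and 316 and 415 with SGSS05-NS. Its level was 0.917 and 0.556 CPM with DMSO and 14.2 and 17.6 CPM with SGSS05-NS. Both treated libraries stood far above both DMSO libraries. Its log2 fold change was 4.42 (SE 0.24, 95% interval 3.89 to 4.94), or 21.4-fold, with an adjusted p of 1.5e-07 by edgeR's quasi-likelihood test. CLDN6, which overlaps it by 1627 bases on the opposite strand, had between 1 and 6 fragments in a library. Among the 6 receptors that were higher, the 95% intervals of TNFRSF12A, FAS, TNFRSF10A and NGFR overlapped each other, except for those of FAS and NGFR, and all 4 lay above the intervals of TNFRSF10B and TNFRSF1A.

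**Figure D2:**
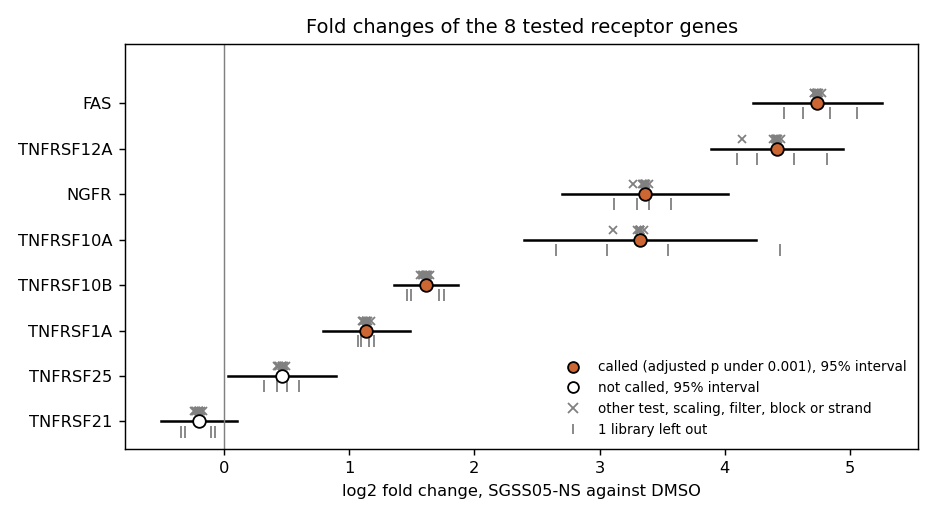
Log2 fold change of the 8 tested receptor genes, SGSS05-NS against DMSO, with 95% intervals from edgeR's quasi-likelihood fit (filled, adjusted p under 0.001). Grey crosses above a point are the value under other tests, scalings, filters, the replicate block and unstranded counts, and grey ticks under it the value with 1 library left out. TNFRSF10A had the widest interval, from 2.397 to 4.25, and TNFRSF21 was the only gene whose interval included 0.

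On the FPKM scale, which allows genes of different length to be compared, the order of the receptors differed between the groups. With DMSO the mean levels were 13.9 FPKM for TNFRSF10B, 5.04 for TNFRSF21, 1.15 for TNFRSF1A, 0.821 for TNFRSF25 and 0.409 for TNFRSF12A. FAS at 0.150, NGFR at 0.110 and TNFRSF10A at 0.0935 FPKM followed, and the ranges of NGFR and TNFRSF10A overlapped, so their order is not resolved. With SGSS05-NS, TNFRSF10B remained the highest at 42.6 FPKM and TNFRSF12A was second at 8.85 FPKM. TNFRSF21 at 4.39 and FAS at 4.06 FPKM came next with overlapping ranges, followed by TNFRSF1A at 2.54 FPKM. NGFR at 1.14 and TNFRSF25 at 1.13 FPKM were also not separated, and TNFRSF10A was at 0.939 FPKM. The decoys were last in both groups. Summed over the 10 receptors, the level was 22.6 and 20.8 FPKM with DMSO and 68.4 and 63.2 FPKM with SGSS05-NS. After TNFRSF10B, the largest shares of the summed gain of the 6 receptors came from TNFRSF12A with 19.1% and FAS with 8.83%, while TNFRSF1A, NGFR and TNFRSF10A gave 3.14%, 2.33% and 1.91%.

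The ligands were next examined in a list of 23 genes, of which 12 had 0 fragments in all 4 libraries. Among these were FASLG, TNFSF10 and TNF, which encode FAS ligand, TRAIL and TNF, the ligands of FAS, of the TRAIL receptors and of TNFRSF1A. LTA and LTB were at 0 as well. Only 6 ligands passed the filter, and 1 was higher and 1 lower, beside 6.37% and 8.14% of all genes tested. Their median log2 fold change was -0.05 beside 0.01 over all genes tested. TNFSF9 (4-1BB ligand) had 2 and 1 fragments with DMSO and 48 and 80 with SGSS05-NS, a ratio of scaled counts of 45.2 with an exact binomial 95% interval of 15.1 to 222. Its adjusted p was 9.4e-06 by edgeR's quasi-likelihood test, and its receptor gene TNFRSF9 had between 1 and 5 fragments in a library. APP, whose product has been described as a ligand of TNFRSF21 and NGFR, fell by 0.95 on the log2 scale (SE 0.09, adjusted p 9.4e-06 by the same edgeR quasi-likelihood test), from 93.4 and 94.5 FPKM to 48.5 and 48.4 FPKM. TNFSF12, which encodes TWEAK, the ligand of TNFRSF12A, had 48 and 31 fragments with DMSO and 25 and 23 with SGSS05-NS and did not pass the test (log2 fold change -0.63, SE 0.31, adjusted p 0.11 in edgeR's quasi-likelihood test). TNFSF9 and TNFSF13B passed the filter through the treated libraries only.

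**Figure D3:**
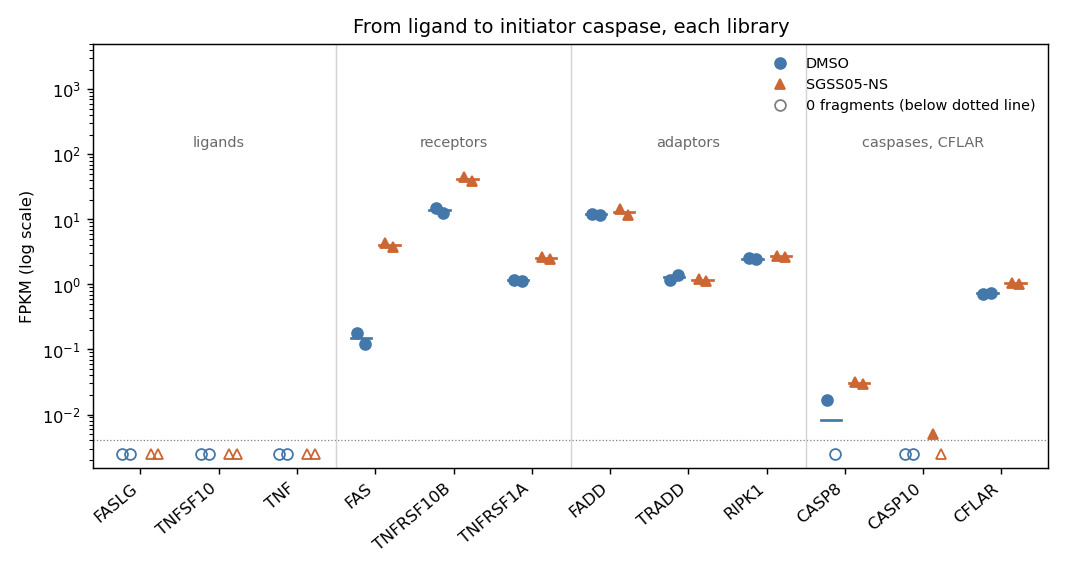
FPKM in each library, on a log axis, of 3 ligand genes, their receptors, adaptors, and the initiator caspases with their inhibitor CFLAR. Points are libraries, lines are means of 2 libraries (not drawn below the dotted line), and open points below the dotted line mark 0 fragments. The 3 receptors were higher with SGSS05-NS, the 3 ligands were at 0 in all libraries, and CASP8 and CASP10 were at or near 0.

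Downstream of the receptors, 27 of 30 genes for adaptors and inhibitors were tested, of which 3 were higher and 3 lower. Over all genes tested, 6.37% were higher and 8.14% lower. The median log2 fold change of the list was 0.10 beside 0.01 over all genes. FADD, the adaptor of FAS and the TRAIL receptors, had 12.3 and 11.7 FPKM with DMSO and 14.3 and 11.7 FPKM with SGSS05-NS (log2 fold change 0.12, SE 0.13). CASP8 had 3 and 0 fragments with DMSO and 5 in each treated library, a ratio of 3.53 with an exact binomial 95% interval of 0.910 to 19.98, and CASP10 had 1 fragment in 1 treated library. The messages of the initiator caspases were thus at or near 0 in both groups, while that of the adaptor was well expressed. CFLAR, which encodes the caspase inhibitor c-FLIP, had a log2 fold change of 0.51 (SE 0.12) with an adjusted p of 0.0036 in edgeR's quasi-likelihood test, and passed at 0.05 but not at 0.001. RIPK1 (0.12, SE 0.10) and TRADD (-0.12, SE 0.22), which act below TNFRSF1A, did not pass the test, nor did the inhibitors of apoptosis BIRC2 (-0.04, SE 0.09) and XIAP (-0.12, SE 0.10).

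The 3 higher genes of this list were TRAF4, PEA15 and TNFAIP3. TRAF4, an atypical member of the TRAF adaptors, had a log2 fold change of 1.16 (SE 0.10, adjusted p 5.4e-06), and PEA15, a death effector domain protein that interferes with FADD and CASP8 binding, one of 0.94 (SE 0.10, adjusted p 1.5e-05), both in edgeR's quasi-likelihood test. TNFAIP3, which encodes A20, an NF-kB target that limits signalling from TNF receptors, had 1 and 4 fragments with DMSO and 19 and 30 with SGSS05-NS. The ratio was 10.4 with an exact binomial 95% interval of 4.16 to 33.4 (adjusted p 4.8e-04 in edgeR's quasi-likelihood test), and the gene passed the filter through the treated libraries only. MAP3K5, a kinase that acts below TNF receptors and TRAF2, fell by 1.29 on the log2 scale (SE 0.15), FAF1, a FAS-associated factor, by 0.81 (SE 0.12), and SORT1, the sortilin co-receptor of NGFR for proneurotrophins, by 0.73 (SE 0.10). Their adjusted p-values were 3.5e-05, 2.3e-04 and 1.7e-04 in edgeR's quasi-likelihood test.

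Of 22 other receptors (the rest of the family and the neurotrophin receptor kinases), 7 were tested. Of these, 2 were higher and 0 lower, beside 6.37% and 8.14% of all genes tested, and the median log2 fold change was 0.11. EDA2R, the receptor of ectodysplasin A2, had 145 and 105 fragments with DMSO and 539 and 393 with SGSS05-NS. Both treated libraries were above both DMSO libraries, with a log2 fold change of 1.99 (SE 0.20) and an adjusted p of 1.2e-05 in edgeR's quasi-likelihood test. RELT, another receptor of the family, had 420 and 382 fragments with DMSO and 556 and 686 with SGSS05-NS (log2 fold change 0.71, SE 0.12, adjusted p 5.9e-04 by edgeR's quasi-likelihood test). The other 15 receptors of the list had at most 10 fragments in every library, and 5 of them were at 0 in all 4.

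**Figure D4:**
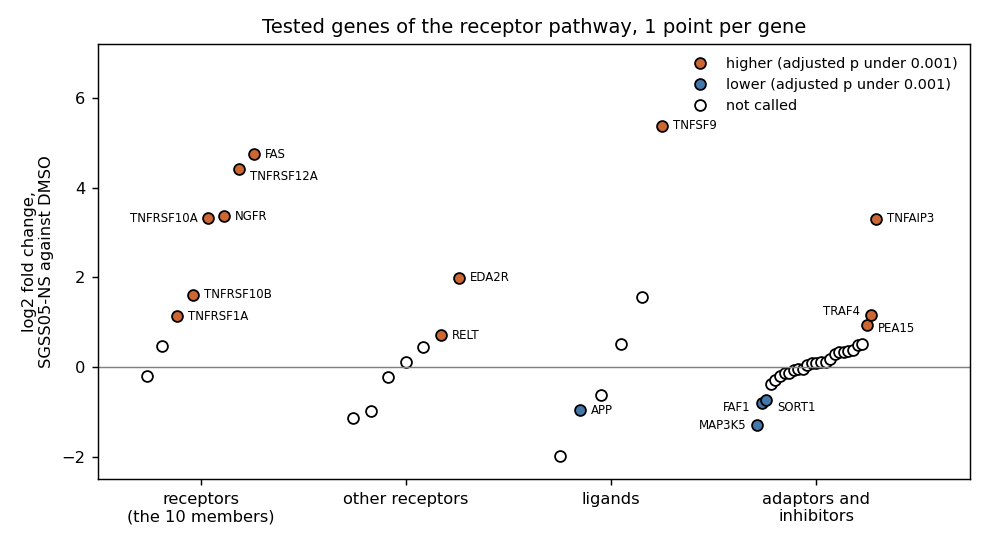
Log2 fold change (SGSS05-NS against DMSO) of the tested genes of 4 lists, 1 point per gene and ordered within a list. Filled points passed an adjusted p of 0.001 in edgeR's quasi-likelihood test. Of the 8 tested receptors, 6 were higher, beside 2 of 7 other receptors, 1 of 6 ligands and 3 of 27 adaptors and inhibitors. Over all genes tested, 6.37% were higher. The receptors and lists were chosen with earlier results of these data known, so the counts are no test of the lists.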

How the data were processed

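Per the submitters' processing notes, the authors used Trimmomatic 0.30 for trimming and STAR 2.4.2a for alignment to hg19. The deposited values are unnormalized counts of fragments for each gene, strand and library. The labels name a TruSeq RNA kit and the study's methods a stranded total RNA kit. The reverse-strand column was used, and fragments on the other strand were between 4.64% and 5.05%. STAR's summary lines stayed out of library sizes and tests. Fragments that met no annotated exon on the counted strand were 12.4% and 12.3% of all fragments with DMSO and 16.1% and 15.3% with SGSS05-NS. These include fragments on exons of the other strand. STAR counts only uniquely mapped fragments, so shared stretches of related receptors may be undercounted. Symbols and exon lengths came from GENCODE release 44 on GRCh37, which matched 55538 of 57820 identifiers.

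The fit was run in R 4.3.3 with edgeR 4.0.16 (genes kept by filterByExpr, TMM factors, quasi-likelihood test, no other term, Benjamini-Hochberg adjustment over 16468 genes, threshold 0.001). SE is the log2 fold change divided by the square root of F. CPM and FPKM were computed from TMM-scaled counts and merged exon lengths. For genes with fewer than 10 DMSO fragments, ratios carry exact binomial 95% intervals, which cover counting error only. The test was checked on simulated counts, where it recovered 77% of 200 planted changes at the threshold and called 0 unchanged genes. A gene that did not pass may therefore still have changed.

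Named genes are all 10 receptors, up to 5 called genes per list and direction, the nearest and antisense genes of called receptors, and KMT5A. Some results that this rule, the lists or the motif search cover are not reported here. The other genes named were chosen for their role or after their values were seen. The receptors and lists were chosen with earlier results of these data known. Alternatives were the likelihood ratio test, DESeq2 1.42.0, DESeq2's size factors, library size scaling, no filter, at least 10 counts in every library, a replicate block, unstranded counts, a threshold of 0.05 and each library left out.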

Additional observations from a re-analysis of the deposited data

Results flagged for a closer look

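Fragments on the strand opposite to FAS, a column that no comparison of the receptors used, numbered 5 and 4 with DMSO and 90 and 40 with SGSS05-NS, or 130 treated fragments against 9 with DMSO. The antisense gene ACTA2 overlaps FAS by 683 bases and was itself higher, and its part in these fragments was not tested. On the strand opposite to TNFRSF10B there were 22 and 28 fragments with DMSO and 43 in each treated library, or 86 against 50, beside the antisense RNA ENSG00000246130, which was also higher. On their own strands, TNFRSF10B had 3384 fragments with DMSO and 9731 with SGSS05-NS, and FAS 26 and 660. The ratio of treated to DMSO fragments was thus larger on the own strand of TNFRSF10B than on its opposite strand. For FAS the ratio on the opposite strand rests on 9 DMSO fragments and on unequal treated libraries. Whether it differs from the ratio on the own strand is not resolved.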

How the results depend on the processing

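The 6 receptors that were higher passed the threshold under every alternative that tested them, and TNFRSF10A was not tested with at least 10 counts in every library, which left 5. With 1 library left out, log2 fold changes lay between 4.47 and 5.05 for FAS, 4.09 and 4.82 for TNFRSF12A, 3.12 and 3.57 for NGFR, 1.46 and 1.76 for TNFRSF10B and 1.07 and 1.20 for TNFRSF1A. The lone library of a group was then assumed to vary like the other group. TNFRSF25 reached an adjusted p of 0.048 with the likelihood ratio test and had between 0.048 and 0.36 over all alternatives. Ligands that were higher numbered 0 with at least 10 counts in every library and 2 at a threshold of 0.05. Ligands that were lower numbered 2 with the likelihood ratio test, with no filter, with the replicate block and at 0.05, and from 1 to 2 with a library left out. With all 4 libraries, adaptors and inhibitors that were higher numbered 3, but 2 with DESeq2 and with at least 10 counts in every library. They numbered 4 with no filter and with the replicate block, 5 with the likelihood ratio test and 9 at 0.05. Those that were lower numbered 3, but 4 with no filter and 5 at 0.05. Other receptors that were higher numbered 1 with unstranded counts and from 1 to 2 with a library left out. Other receptors that were lower numbered 1 with the likelihood ratio test and the replicate block, 2 with no filter and at 0.05, and from 0 to 1 with a library left out. The cause was not tested. The share of TNFRSF10C among TRAIL receptors, 0.138 percentage points higher with SGSS05-NS, ranged from -0.00695 to 0.283 with a library left out, the lowest without SGSS05-NS replicate 2, which held 7 of its 10 treated fragments. The drop in the share of TNFRSF10B was -0.937 percentage points in CPM and -1.63 in FPKM. Deviations of libraries with the same replicate number correlated at 0.0526 over all genes, so the numbers were not taken to pair the libraries. With the replicate block, all genes higher and lower numbered 1759 and 2007 instead of 1049 and 1341, and 6 receptors were higher. Over all genes, the likelihood ratio test gave 2022 and 2267, no filter 2034 and 2570, and DESeq2 976 and 1631 with 13118 adjusted p-values missing. Depth limits the decoys, CASP8, CASP10 and most ligands.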
